A study of Mus musculus with 37 samples.

Results

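Endocannabinoid signalling was followed through 9 genes in the ribosome-bound RNA of midbrain dopamine and GABA neurons: the cannabinoid receptor gene Cnr1 and the metabolic enzyme genes Dagla, Daglb, Napepld, Pla2g4e, Mgll, Abhd6, Abhd12 and Faah. The genes were chosen by name, and all 9 were found, each once, among the 57180 genes of the DAT;NuTRAP table and of the VGAT;NuTRAP table. Cnr1 and Pla2g4e are also named by the study from these samples, so their values here are not independent evidence of a direction given there. The comparisons were between the cell types and between old and young mice of each.

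Each of the 37 libraries came from 1 mouse and holds RNA bound to GFP-tagged ribosomes, purified from midbrain slices with the substantia nigra and the ventral tegmental area. The DAT;NuTRAP mice carried Cre at the dopamine transporter gene (DAT-IRES-cre) and the VGAT;NuTRAP mice carried Cre at the vesicular GABA transporter gene (Vgat-ires-cre). Mice of every group also carried the NuTRAP reporter at Rosa26, which fuses EGFP to the ribosomal protein L10a once Cre has removed a stop. The 19 DAT;NuTRAP libraries were from 9 old mice (4 females and 5 males, all of 21 months) and 10 young mice (5 females and 5 males, of 8 to 10.5 months). The 18 VGAT;NuTRAP libraries were from 8 old mice (5 females and 3 males, of 21 months, except 1 female of 24 months) and 10 young mice (6 females and 4 males, of 7 to 9 months). Cell type, mouse line and Cre driver cannot be told apart in this design, and a driver marks every midbrain cell in which its Cre was active, so the VGAT;NuTRAP libraries pool several kinds of GABA neuron.

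The libraries held 13841253 to 38235015 counted reads in DAT;NuTRAP and 19065284 to 35054329 in VGAT;NuTRAP. The labels place 8 DAT;NuTRAP and 6 VGAT;NuTRAP libraries in a first batch and 11 and 12 in a second, and the second-batch DAT;NuTRAP libraries had reads for fewer genes (14323 to 18170) than the first-batch ones (19085 to 21051). The labelled cell types held against their markers: 8 of 8 dopamine neuron markers were higher in DAT;NuTRAP (summed level 12736 to 17935 CPM, the counts scaled to a library of fixed size, against 979 to 3815 CPM in VGAT;NuTRAP), and 4 of 4 GABA neuron markers were lower (516 to 880 CPM against 3870 to 4940 CPM). No marker gene was at 0 in all libraries of a model. Of the glial and vascular markers, 9 of 10 astrocyte, 10 of 10 oligodendrocyte, 5 of 5 endothelial and 1 of 10 microglial genes were higher in DAT;NuTRAP, and 1 astrocyte gene was lower. Their summed levels in DAT;NuTRAP and VGAT;NuTRAP libraries were 864 to 2253 and 873 to 1390 CPM for astrocytes, 513 to 2357 and 247 to 976 CPM for oligodendrocytes, 39.8 to 197 and 20.9 to 44.9 CPM for endothelium, and 41.2 to 142 and 18.05 to 163 CPM for microglia. The part of these other cells in the differences below was not tested, and in such pooled RNA fewer cells of a type and less RNA per cell cannot be told apart.

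Endocannabinoids are lipid messengers that a neuron makes on demand and that mostly act backwards across the synapse, on CB1 receptors of the incoming terminal, where they lower transmitter release. The main brain endocannabinoid, 2-arachidonoylglycerol (2-AG), is made from diacylglycerol by the diacylglycerol lipases of Dagla and Daglb and is broken down by monoacylglycerol lipase (Mgll) and the hydrolases of Abhd6 and Abhd12. Anandamide is released from N-acylated phosphatidylethanolamine by the phospholipase of Napepld and is hydrolysed by the fatty acid amide hydrolase of Faah. Pla2g4e encodes a calcium-dependent acyltransferase that makes that phospholipid precursor. In the midbrain, 2-AG released by dopamine neurons is known to act on CB1 receptors of their GABA and glutamate inputs.

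All 9 genes had a place in the GRCm39 annotation and were protein coding there. Cnr1 (ENSMUSG00000044288) lies at chr4:33922982-33948836 on the plus strand. Of the 2-AG synthetic genes, Dagla lies at chr19:10222629-10282320 on the minus strand and Daglb at chr5:143450236-143496130 on the plus strand. Of the anandamide branch, Napepld lies at chr5:21867688-21923575, Pla2g4e at chr2:119996893-120076084 and Faah at chr4:115824342-115875423, each on the minus strand. Of the 2-AG hydrolases, Mgll lies at chr6:88652108-88805342 on the plus strand, Abhd6 at chr14:14411450-14468795 on the minus strand and Abhd12 at chr2:150674408-150746693 on the minus strand. The exons of Daglb share 2682 bases with those of Rac1 on the opposite strand, and the exons of Napepld share 367 bases with those of Armc10, also on the opposite strand. Shorter stretches of 203 bases in Cnr1, 496 in Mgll, 139 in Abhd6, 79 in Abhd12 and 32 in Pla2g4e are shared with long noncoding RNAs of the opposite strand. Pla2g4e also shares 336 exonic bases with Gm13997, a long noncoding RNA of the same strand. How the authors' counting treated strand is not given in the sources used here, so reads in these stretches could belong to either gene.

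The promoters of the 3 genes with the largest differences between cell types, Cnr1, Abhd6 and Pla2g4e, are shown as the 250 bases before the first listed start of each. They were taken from RefSeq on build GRCm38.p6, which had a promoter entry for 7 of the 9 genes. Capitals mark matches on either strand to GGGCGG (the GC box), the only one of 5 motifs searched that was found in these 3 windows, the others being TGACGTCA, AAAGGTCA, TATAAA and CACGTG. The windows are chr4:33924014-33924263 on the plus strand for Cnr1, chr14:8002638-8002887 on the plus strand for Abhd6 and chr2:120245336-120245585 on the minus strand for Pla2g4e, each strand being that of this build.
Cnr1: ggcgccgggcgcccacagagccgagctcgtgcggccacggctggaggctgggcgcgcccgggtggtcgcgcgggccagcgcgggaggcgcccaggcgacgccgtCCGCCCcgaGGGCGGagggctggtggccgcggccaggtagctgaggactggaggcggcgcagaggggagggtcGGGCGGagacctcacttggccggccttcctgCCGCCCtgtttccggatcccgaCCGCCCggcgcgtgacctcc
Abhd6: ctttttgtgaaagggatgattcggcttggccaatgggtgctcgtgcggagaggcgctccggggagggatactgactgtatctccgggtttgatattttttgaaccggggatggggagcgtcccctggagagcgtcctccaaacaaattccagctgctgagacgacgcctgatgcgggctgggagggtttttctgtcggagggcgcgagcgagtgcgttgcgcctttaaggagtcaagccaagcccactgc
Pla2g4e: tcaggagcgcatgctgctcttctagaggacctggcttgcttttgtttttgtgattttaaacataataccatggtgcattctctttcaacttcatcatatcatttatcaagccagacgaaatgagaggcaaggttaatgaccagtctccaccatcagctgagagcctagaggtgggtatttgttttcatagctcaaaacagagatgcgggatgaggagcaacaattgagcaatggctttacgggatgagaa
The Cnr1 window held 5 GC boxes and was 79.2% G and C, that of Abhd6 held none and was 58.4%, and that of Pla2g4e held none and was 43.2%. Other listed starts differed: of 3 windows for Cnr1, the other two held no GC box and were 68.8% and 49.2% G and C, and the second had a CACGTG, while the second of 2 windows for Abhd6, which overlaps the one shown, held 1 GC box and was 62.8%. Over all 32851 windows of the table, the median was 52.4% G and C, and 32.7% held at least 1 GC box, 1.55% TGACGTCA, 1.34% AAAGGTCA, 12.4% TATAAA and 6.02% CACGTG. A match is a description of these letters, and the data here hold no measurement of factor binding.

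Expression levels were compared between genes only after division by transcript length, as CPM per kilobase of the canonical transcript. In DAT;NuTRAP libraries, Abhd12 stood above the rest at 137 ± 12.4 CPM per kilobase (SD, n = 19). Dagla followed at 11.3 ± 2.45, then Faah at 8.80 ± 1.31, Mgll at 8.71 ± 3.35, Abhd6 at 7.26 ± 1.94, Daglb at 4.72 ± 1.50, Napepld at 3.56 ± 1.14, Cnr1 at 3.02 ± 1.59 and Pla2g4e at 1.23 ± 0.543 CPM per kilobase. From Dagla downwards, the library ranges of each pair of neighbours in this order overlapped. In VGAT;NuTRAP libraries, Abhd12 was again highest at 146 ± 9.48 CPM per kilobase (SD, n = 18), but Cnr1 came second at 22.5 ± 6.57, ahead of Abhd6 at 16.2 ± 1.90, Mgll at 12.8 ± 1.97, Dagla at 11.7 ± 1.11 and Faah at 9.91 ± 0.716. Daglb at 5.75 ± 0.540, Napepld at 5.20 ± 0.761 and Pla2g4e at 0.658 ± 0.230 CPM per kilobase closed the order. The ranges of neighbours there did not overlap below Abhd12, below Faah and above Pla2g4e. With all annotated exons as the length, Abhd12 (21.6 ± 1.40) and Cnr1 (15.4 ± 4.49 CPM per kilobase) overlapped in VGAT;NuTRAP, and Cnr1 was the sixth in DAT;NuTRAP. By canonical transcript, the receptor gene thus stood next to last among the 9 in dopamine neurons and next to first in GABA neurons.

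**Figure D1:**
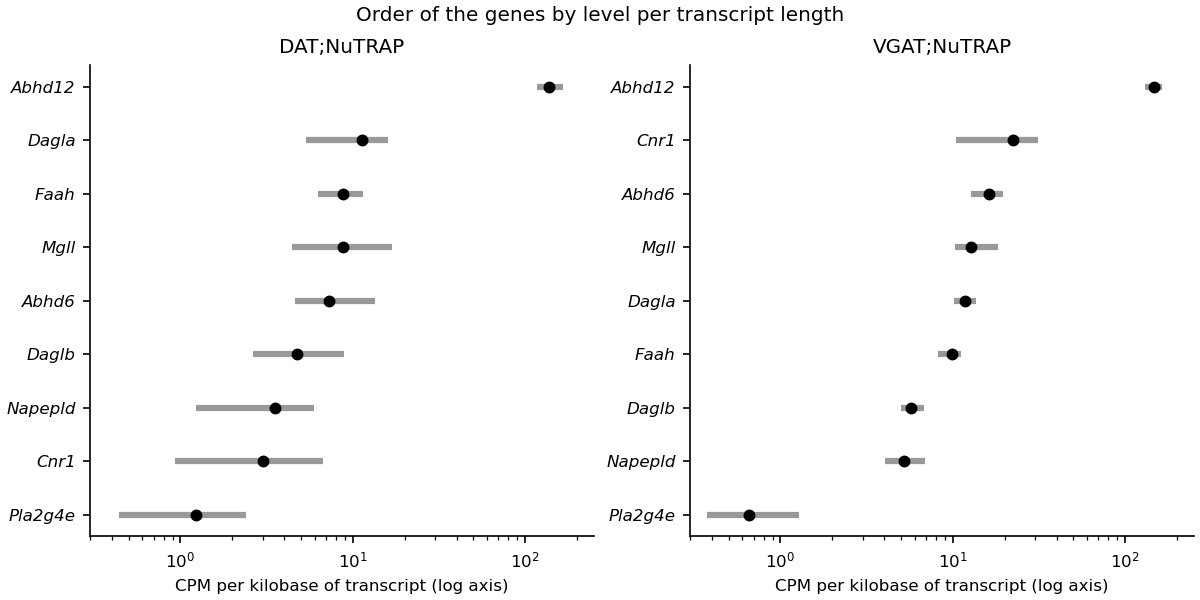
Level of each gene per transcript length, in CPM per kilobase of canonical transcript on a log axis, in DAT;NuTRAP (left, n = 19 libraries) and VGAT;NuTRAP (right, n = 18). Points are means and bars run from the lowest to the highest library. Abhd12 leads both panels at 137 and 146 CPM per kilobase, and Cnr1 is near the foot of the DAT;NuTRAP order at 3.02 and near the top of the VGAT;NuTRAP order at 22.5.

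With old and young libraries averaged and batch in the model, 7 of the 9 genes were lower in dopamine than in GABA neurons, 1 was higher and 1 did not pass the test. These calls used an adjusted p below 0.05 in edgeR's quasi-likelihood test over 16898 genes, of which 60.5% passed, 30.4% lower and 30.0% higher. The median log2 fold change of the 9 genes was -0.31, beside 0.01 over all genes tested. Among the 9, only Cnr1 had library ranges that did not overlap between the models. How many of all genes tested were separated in this way was not counted. The differences of the other called genes ran from large (Abhd6) to a few percent (Abhd12).

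The receptor gene gave the largest difference. Cnr1 ranged from 9.66 to 26.9 CPM (median 19.5) in old DAT;NuTRAP libraries and from 5.99 to 42.9 CPM (median 16.3) in young ones, against 67.2 to 200 CPM (median 164) in old VGAT;NuTRAP libraries and 89.2 to 198 CPM (median 154) in young ones. Every dopamine library lay below every GABA library. The level was 7.68-fold lower in DAT;NuTRAP (log2 fold change -2.94 ± 0.24, SE, adjusted p = 8.73e-13), and 0.947% of all tested genes had a lower fold change. It was called in old mice (-3.04 ± 0.34, adjusted p = 4.07e-09) and in young mice (-2.84 ± 0.32, adjusted p = 2.96e-09). The mean of Cnr1 in DAT;NuTRAP was 13.4% of its mean in VGAT;NuTRAP, where the same share was 7.48% for Gad1 and 9.74% for Gad2, which encode the GABA-synthesising enzymes, and 23.0% for Slc32a1, the vesicular GABA transporter. The share of Cnr1 was 29.4% in the first batch, above the 20.8% of Slc32a1, and 8.26% in the second, below the 24.6% of Slc32a1. For Gad1 and Gad2 the shares were 8.66% and 13.02% in the first batch and 6.04% and 7.49% in the second. Cnr1 thus stood above Gad1 and Gad2 in each batch. The shares of Cnr1, Gad1 and Gad2 were lower in the second batch, and that of Slc32a1 was higher. How much of the Cnr1 in dopamine libraries came from RNA of GABA neurons was not tested.

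**Figure D2:**
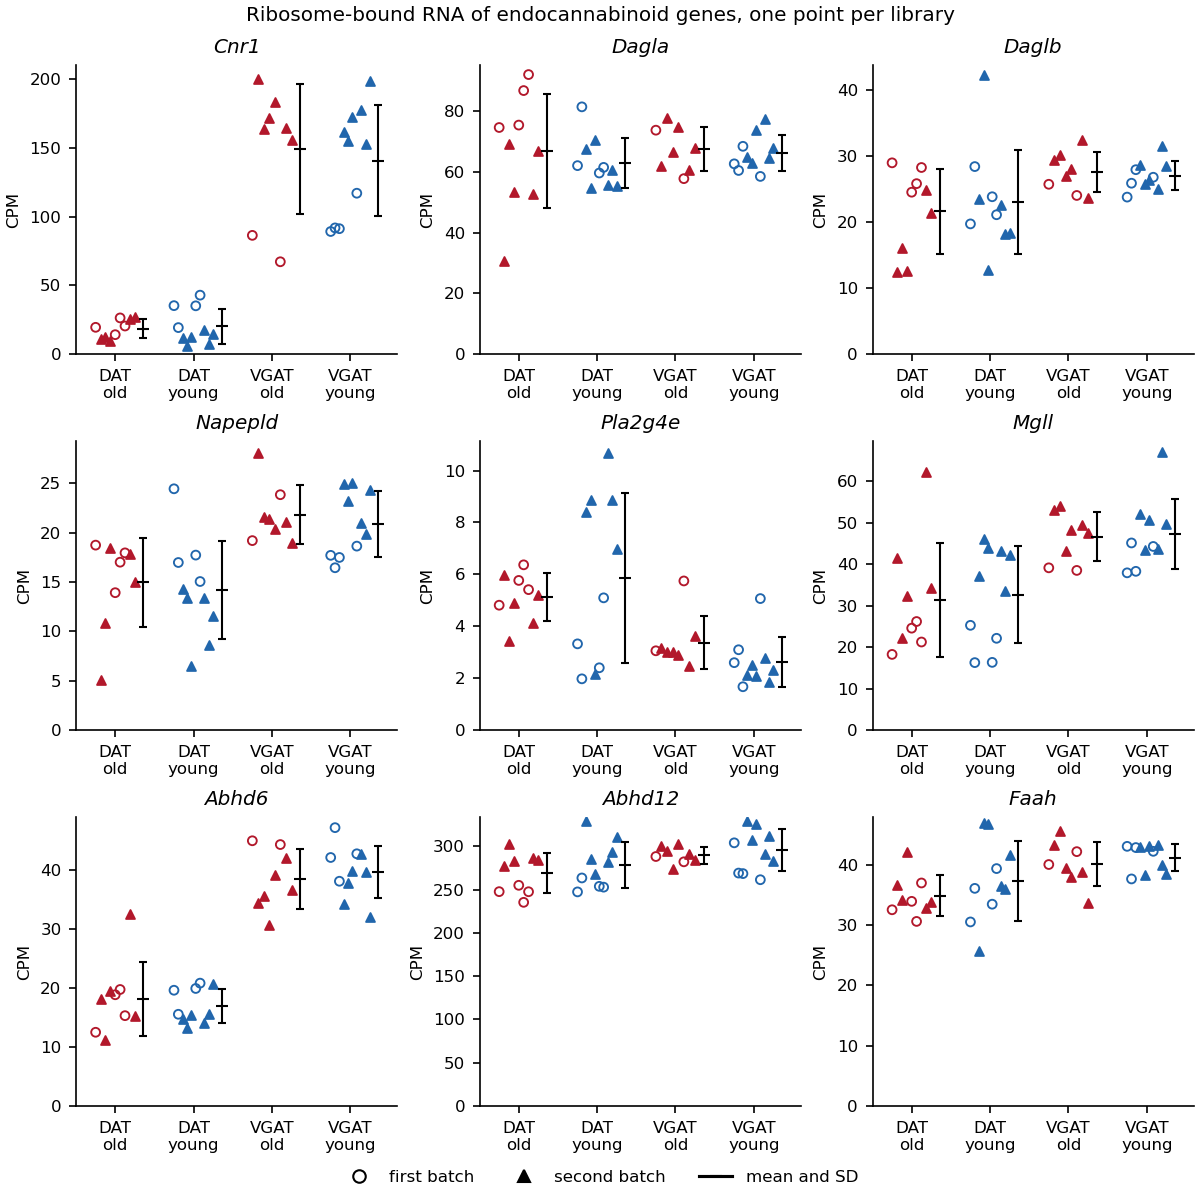
Level of each gene in every library, in CPM scaled by TMM factors, in DAT;NuTRAP old (n = 9) and young (n = 10) and VGAT;NuTRAP old (n = 8) and young (n = 10). Open circles are first-batch and filled triangles second-batch libraries, red is old and blue young, and the bars give the mean and SD. Cnr1 is at 5.99 to 42.9 CPM in DAT;NuTRAP and at 67.2 to 200 CPM in VGAT;NuTRAP. Old and young libraries overlap for all 9 genes, and such overlap was not counted over all genes.

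The diacylglycerol lipase genes differed little between the cell types. Dagla, whose product makes most of the synaptic 2-AG, ranged from 30.7 to 92.0 CPM (median 69.3) in old and 54.8 to 81.4 CPM (median 61.1) in young DAT;NuTRAP libraries, against 57.8 to 77.7 CPM (median 67.3) in old and 58.5 to 77.4 CPM (median 64.7) in young VGAT;NuTRAP libraries. The dopamine libraries spread to both sides of the GABA ones, and the difference did not pass (log2 fold change -0.07 ± 0.08, 95% interval -0.23 to 0.09, adjusted p = 0.479). Daglb, the other diacylglycerol lipase gene, ranged from 12.5 to 29.0 CPM (median 24.5) in old and 12.8 to 42.3 CPM (median 21.8) in young DAT;NuTRAP, against 23.6 to 32.5 CPM (median 27.5) in old and 23.8 to 31.6 CPM (median 26.6) in young VGAT;NuTRAP. It was lower in dopamine neurons (log2 fold change -0.31 ± 0.11, adjusted p = 0.0152), with 11 of 19 dopamine libraries below all GABA libraries and 1 above them. Within a library, the level of Dagla per kilobase was 2.55 ± 0.75 times that of Daglb in DAT;NuTRAP (SD, n = 19) and 2.05 ± 0.26 times in VGAT;NuTRAP (SD, n = 18), with ranges that overlapped.

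Over all libraries, the genes upstream of anandamide differed in opposite directions, but neither was called in the first batch alone. Napepld, the phospholipase gene, ranged from 5.06 to 18.7 CPM (median 17.0) in old and 6.54 to 24.5 CPM (median 13.9) in young DAT;NuTRAP, against 18.9 to 28.1 CPM (median 21.2) in old and 16.5 to 25.1 CPM (median 20.4) in young VGAT;NuTRAP. It was 1.50-fold lower in dopamine neurons (log2 fold change -0.59 ± 0.13, adjusted p = 0.000126). In old mice every dopamine library lay below every GABA library, but only narrowly (highest 18.7 against lowest 18.9 CPM). Such separation was not counted over all genes, and in old mice of the first batch alone Napepld was not called (edgeR, adjusted p = 0.139). Pla2g4e, the acyltransferase gene, had the lowest level per kilobase of the 9 in both models, with 33 to 379 reads per library in DAT;NuTRAP and 39 to 131 in VGAT;NuTRAP. It ranged from 3.43 to 6.37 CPM (median 5.19) in old and 1.97 to 10.7 CPM (median 6.03) in young DAT;NuTRAP, against 2.46 to 5.75 CPM (median 3.02) in old and 1.67 to 5.07 CPM (median 2.41) in young VGAT;NuTRAP. It was the only one of the 9 that was higher in dopamine neurons (1.85-fold, log2 fold change 0.89 ± 0.20, adjusted p = 0.000183), with 8 of 19 dopamine libraries above all GABA libraries. In the first batch alone, the adjusted p in edgeR was 0.331 for Napepld and 0.604 for Pla2g4e. In old mice Pla2g4e was not called (edgeR, adjusted p = 0.0891).

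All 3 of the 2-AG hydrolase genes were lower in dopamine neurons, by very different amounts. Abhd6, whose product hydrolyses 2-AG at the postsynaptic membrane, ranged from 11.2 to 32.6 CPM (median 18.2) in old and 13.3 to 20.8 CPM (median 15.6) in young DAT;NuTRAP, against 30.8 to 45.0 CPM (median 37.9) in old and 32.1 to 47.2 CPM (median 39.8) in young VGAT;NuTRAP. It was 2.24-fold lower (log2 fold change -1.16 ± 0.09, adjusted p = 2.72e-14), the smallest p of the 9 genes, and 18 of 19 dopamine libraries lay below all GABA libraries. Mgll, the gene of the main presynaptic 2-AG hydrolase, ranged from 18.2 to 62.2 CPM (median 26.2) in old and 16.3 to 46.0 CPM (median 35.4) in young DAT;NuTRAP, against 38.5 to 53.9 CPM (median 47.9) in old and 37.9 to 67.2 CPM (median 44.7) in young VGAT;NuTRAP. It was 1.46-fold lower (log2 fold change -0.55 ± 0.10, adjusted p = 4.61e-06), with 13 of 19 dopamine libraries below all GABA libraries. Abhd12, a broadly expressed lipase gene, ranged from 235 to 303 CPM (median 277) in old and 247 to 329 CPM (median 275) in young DAT;NuTRAP, against 274 to 303 CPM (median 289.5) in old and 261 to 329 CPM (median 298) in young VGAT;NuTRAP. Its difference was small (log2 fold change -0.08 ± 0.03, adjusted p = 0.0298), and the call was lost under several alternatives, with an adjusted p of 0.0742 under DESeq2 size factors and 0.175 in the second batch alone. It was also lost without 1 VGAT;NuTRAP library: old female replicate 1, young female replicate 1 or old male replicate 1 (highest adjusted p = 0.0588, without the old female). Per kilobase and within a library, the level of Mgll was 1.24 ± 0.48 times that of Abhd6 in DAT;NuTRAP (SD, n = 19) and 0.802 ± 0.174 times in VGAT;NuTRAP (SD, n = 18).

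Faah, the gene of the enzyme that ends anandamide signalling, was slightly lower in dopamine neurons. It ranged from 30.6 to 42.1 CPM (median 33.9) in old and 25.7 to 46.8 CPM (median 36.3) in young DAT;NuTRAP, against 33.7 to 45.6 CPM (median 39.7) in old and 37.6 to 43.3 CPM (median 42.5) in young VGAT;NuTRAP. The log2 fold change was -0.17 ± 0.06 (adjusted p = 0.0162), and 6 of 19 dopamine libraries lay below all GABA libraries and 2 above them. With each sex alone, Faah and Abhd12 were not called in females or males, and Daglb was not called in females (adjusted p = 0.0671).

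Between old mice of the models, 4 of the 9 genes were called, all lower in dopamine neurons: Cnr1, Abhd6, Mgll and Napepld. Of the 16898 genes tested, 46.8% were called there, 24.1% lower and 22.7% higher. Daglb (-0.38 ± 0.16, adjusted p = 0.0514), Faah (-0.19 ± 0.09, adjusted p = 0.0774) and Pla2g4e (0.61 ± 0.29, adjusted p = 0.0891) were near the threshold. Daglb was called there when any 1 of 13 libraries was left out, Faah with any 1 of 3 and Pla2g4e without the VGAT;NuTRAP old male replicate 1 (adjusted p = 0.031), and the count was 7 when 1 young DAT;NuTRAP female (replicate 3) was left out. Calls over all genes ran from 7478 to 8169 with each library left out in turn. Between young mice, 5 were called, among 49.8% of all genes (25.4% lower and 24.3% higher): the same 4 genes, lower, and Pla2g4e, higher (1.17 ± 0.28, adjusted p = 0.000449). Of these 4 genes, Napepld was not called in the first batch alone in young mice, where its value was 0.07 ± 0.14 (adjusted p = 0.749), or in old mice (adjusted p = 0.139), and Mgll was not called in the second batch alone in old mice (adjusted p = 0.0635) or in young mice (adjusted p = 0.071). The difference of these contrasts is the age by cell type term given below, which was called for none of the 9.

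The size of several cell type differences was not the same in the batches. The batch labels are those of the sample descriptions, and whether a label stands for the same sequencing or preparation run in both models is not given in the sources used here. For 4 of the 9 genes the cell type difference itself differed between batches, in a test chosen after the levels were seen, in which 29.1% of all genes were called: Cnr1 (second minus first batch, -1.85 ± 0.33 on the log2 scale, adjusted p = 4.24e-05), Napepld (-0.78 ± 0.23, adjusted p = 0.00787), Mgll (0.59 ± 0.18, adjusted p = 0.00847) and Dagla (-0.45 ± 0.15, adjusted p = 0.0164). Cnr1 was at 14.2 to 42.9 CPM in first-batch and 5.99 to 26.9 CPM in second-batch DAT;NuTRAP libraries, against 67.2 to 117 CPM in first-batch and 153 to 200 CPM in second-batch VGAT;NuTRAP libraries. The batches of GABA libraries did not overlap, with the second higher, whereas in dopamine libraries the batches overlapped and the second had the lower mean (14.2 against 26.6 CPM in the first). The difference of Cnr1 was called within the first batch (-1.75 ± 0.18) and, larger, within the second (-3.61 ± 0.20).

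Within each batch alone, Abhd6 kept a similar difference (-1.30 ± 0.10 in the first and -1.11 ± 0.12 in the second), and Mgll was called in both (-0.92 ± 0.11 and -0.36 ± 0.11). Napepld (-0.88 ± 0.16), Pla2g4e (1.18 ± 0.24) and Daglb (-0.50 ± 0.14) were called in the second batch, whereas in the first their values were -0.14 ± 0.11, 0.19 ± 0.26 and -0.03 ± 0.09, with adjusted p = 0.331, 0.604 and 0.793. Dagla was at 0.20 ± 0.09 in the first batch (adjusted p = 0.0769) and was called lower in the second (-0.27 ± 0.09, adjusted p = 0.0131). Faah and Abhd12 were called in the first batch (-0.28 ± 0.08 and -0.17 ± 0.05) and not in the second (adjusted p = 0.188 and 0.175). In DAT;NuTRAP, second-batch libraries had more oligodendrocyte marker RNA (1136 to 2357 CPM) than first-batch ones (513 to 780 CPM), more Mgll (22.1 to 62.2 against 16.3 to 26.2 CPM) and less Gad1 (53.6 to 144 against 142 to 253 CPM). Mean Gad2 was also lower in the second batch (109 against 184 CPM), but mean Slc32a1 was higher (104 against 87.4 CPM). In VGAT;NuTRAP, Mgll was also higher in the second batch (43.2 to 67.2 against 37.9 to 45.1 CPM), and mean Gad1 was lower (1636 against 2118 CPM). Mean Gad2 (1462 against 1416 CPM) and mean Slc32a1 (422 against 419 CPM) were not lower in the second batch of VGAT;NuTRAP. The oligodendrocyte marker sum had a lower median there in the second batch (337 against 410 CPM), with ranges that overlapped. The part of these in the batch values was not tested.

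**Figure D3:**
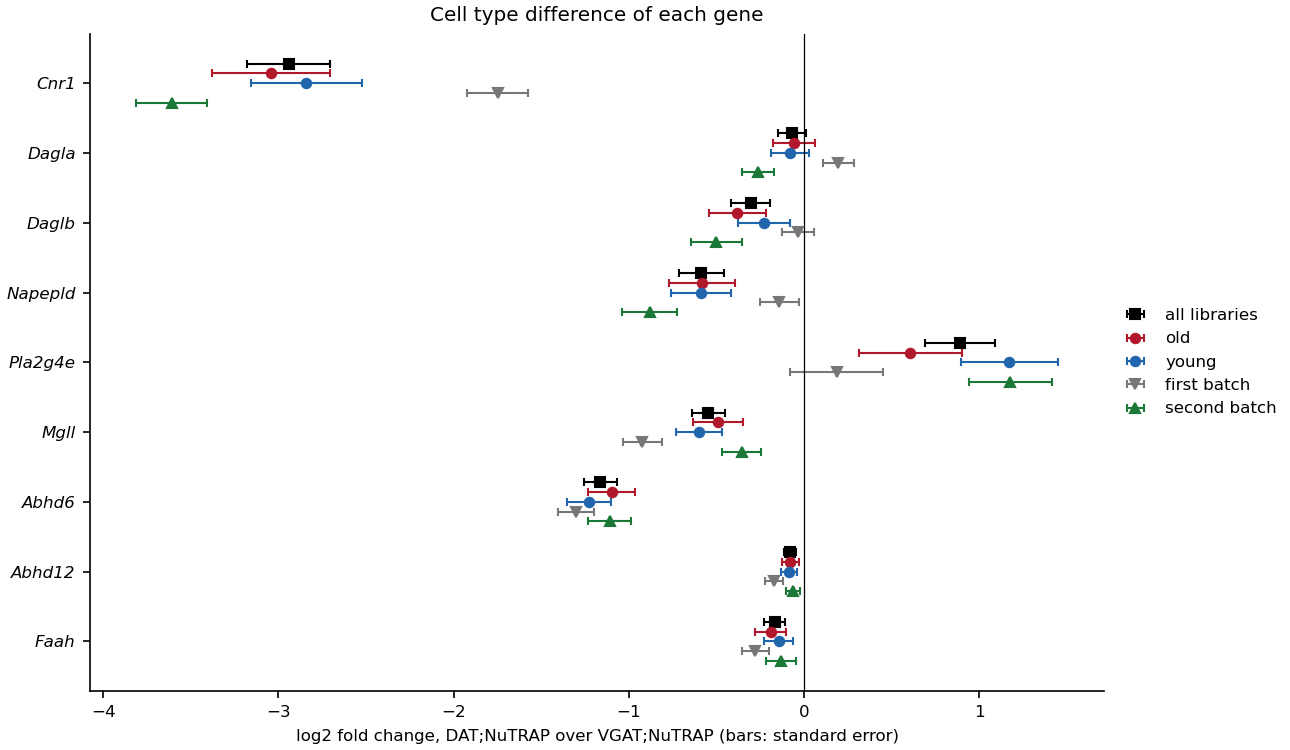
Log2 fold change of each gene, DAT;NuTRAP over VGAT;NuTRAP, with standard errors, for all 37 libraries, old mice, young mice and each batch alone. Cnr1 has the lowest value in all 5 sets, and Pla2g4e lies above 0 in all of them. Cnr1 stands at -1.75 in the first and -3.61 in the second batch and Dagla at 0.20 and -0.27.

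Age gave no called difference in any of the 9 genes in either cell type. Old and young libraries overlapped for all 9 in both models, but such overlap was not counted over all genes. In dopamine neurons 1 of 14889 genes (0.00672%) was called by edgeR and 786 had an unadjusted p below 0.05, among them none of the 9. DESeq2 called 13 and limma-voom 0 genes there, again with none of the 9. In GABA neurons 4 of 15607 genes (0.0256%) were called by edgeR, 23 by DESeq2 and 5 by limma-voom, and 934 had an unadjusted p below 0.05, of which 1 was among the 9. The median log2 fold change of the 9 genes, old over young, was 0.02 in DAT;NuTRAP and -0.01 in VGAT;NuTRAP, beside 0.00 over all genes in each.

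Cnr1 averaged 18.5 ± 6.79 CPM in old and 20.3 ± 12.9 CPM in young DAT;NuTRAP (SD, n = 9 and 10), with a log2 fold change of 0.02 ± 0.27 and a 95% interval from -0.53 to 0.58. In VGAT;NuTRAP it averaged 149 ± 47.0 CPM in old and 141 ± 40.2 CPM in young libraries (SD, n = 8 and 10), with -0.08 ± 0.08 and an interval from -0.24 to 0.09. The interval was narrower in GABA than in dopamine neurons. Within the batches, the age difference of Cnr1 in DAT;NuTRAP lay on either side of 0, at -0.73 ± 0.25 among first-batch libraries (adjusted p = 0.349) and at 0.57 ± 0.32 among second-batch ones (adjusted p = 0.914).

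Pla2g4e in GABA neurons was the one value of the 18 with an unadjusted p below 0.05. It averaged 3.36 ± 1.01 CPM in old and 2.61 ± 0.965 CPM in young VGAT;NuTRAP (SD, n = 8 and 10). That was a 1.36-fold higher level in old mice (log2 fold change 0.44 ± 0.19), with an unadjusted p of 0.0287 in edgeR and an adjusted p of 0.826. The highest library of each age was a first-batch male, at 5.75 CPM in old and 5.07 CPM in young mice. Within the batches the value was 0.51 ± 0.42 in the first and 0.41 ± 0.21 in the second, neither called. In DAT;NuTRAP, Pla2g4e averaged 5.11 ± 0.921 CPM in old and 5.87 ± 3.28 CPM in young libraries (log2 fold change -0.07 ± 0.32, adjusted p = 1), and its batch values were 0.79 ± 0.29 and -0.69 ± 0.44, again on either side of 0 and not called.

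With the sexes together, the enzymes of 2-AG showed age differences close to 0 in both cell types. In dopamine neurons, those of Mgll, Daglb and Dagla had opposite signs in females and males, as given below. In dopamine neurons the log2 fold changes were 0.04 ± 0.12 for Dagla, -0.14 ± 0.18 for Daglb, 0.02 ± 0.14 for Mgll, 0.09 ± 0.17 for Abhd6 and -0.05 ± 0.05 for Abhd12. In GABA neurons they were 0.02 ± 0.06 for Dagla, 0.01 ± 0.07 for Daglb, -0.06 ± 0.07 for Mgll, -0.01 ± 0.07 for Abhd6 and -0.04 ± 0.04 for Abhd12. Of the anandamide enzymes, Napepld was at 0.09 ± 0.20 and Faah at -0.09 ± 0.11 in dopamine neurons, and at 0.04 ± 0.08 and -0.03 ± 0.06 in GABA neurons. All 18 of the 95% intervals lay within a log2 change of 1 in either direction. The median width of the intervals was 0.69 in dopamine neurons and 0.28 in GABA neurons, so smaller differences were less detectable in dopamine neurons.

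**Figure D4:**
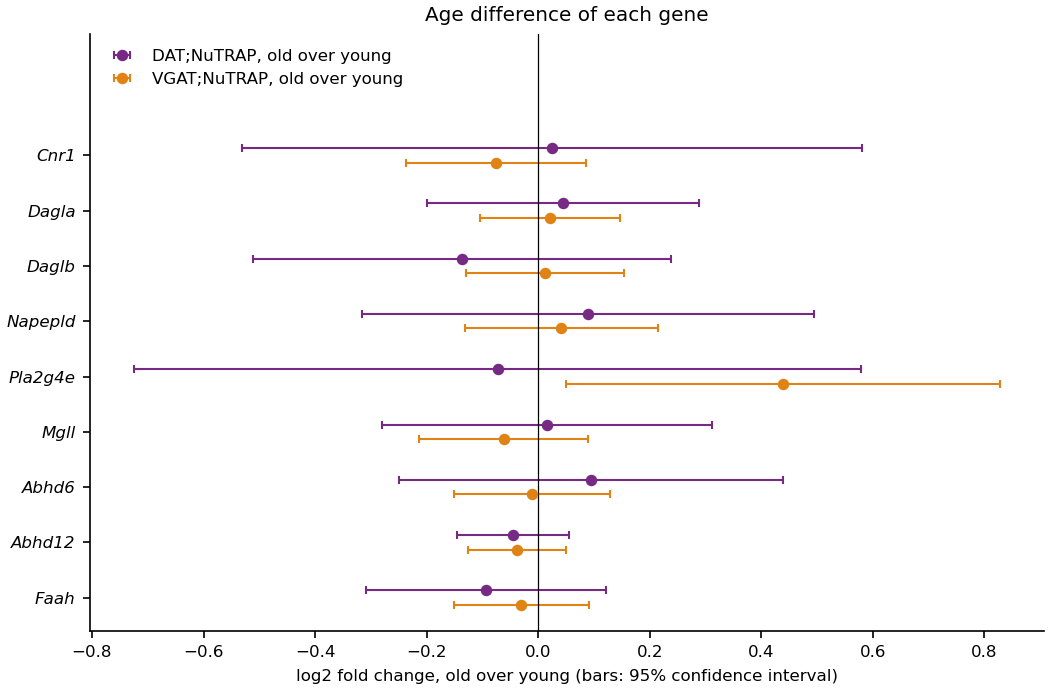
Log2 fold change of each gene, old over young, with 95% confidence intervals, in DAT;NuTRAP (9 old, 10 young libraries) and VGAT;NuTRAP (8 old, 10 young libraries). All intervals cross 0 but that of Pla2g4e in VGAT;NuTRAP, at 0.05 to 0.83, and the dopamine intervals are the wider for every gene.

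The age difference in dopamine neurons minus that in GABA neurons was called for none of the 9 genes, and by edgeR for 0 of 16898 genes (0%), with 467 at an unadjusted p below 0.05, 1 gene called by DESeq2 and 0 by limma-voom. The values ran from -0.56 ± 0.40 for Pla2g4e (adjusted p = 1) to 0.13 ± 0.18 for Abhd6, and that of Cnr1 was -0.20 ± 0.43 with a 95% interval from -1.07 to 0.66. The term of Pla2g4e was -0.34 without the VGAT;NuTRAP old male replicate 1, and that of Cnr1 -0.013 without the DAT;NuTRAP young male replicate 2. Of the 9 intervals, 7 lay within a log2 difference of 1, and those of Cnr1 and Pla2g4e reached beyond it.

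With the sexes apart, none of the 9 genes was called in any of the 4 comparisons of old with young mice. The test of edgeR called 0 of 14839 genes (0%) in DAT;NuTRAP females and 0 of 15789 (0%) in males, with 601 and 868 at an unadjusted p below 0.05, while DESeq2 called 31 and 7 and limma-voom 2 and 0. In VGAT;NuTRAP it called 5 of 15617 genes (0.0320%) in females and 5 of 15875 (0.0315%) in males, where 0.0252% were higher and 0.00630% lower. DESeq2 called 23 and 19 genes there and limma-voom 5 and 4, and 873 and 813 genes had an unadjusted p below 0.05. Among the 9 genes, an unadjusted p below 0.05 was seen once in each male comparison and in neither female one.

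Dagla in DAT;NuTRAP males ranged from 52.8 to 92.0 CPM (median 75.4) in 5 old mice, against 55.4 to 61.5 CPM (median 59.6) in 5 young mice. The old males spread to both sides of the young ones, with 3 first-batch old males highest, and the log2 fold change was 0.28 ± 0.12 (edgeR, adjusted p = 0.904). Cnr1 in VGAT;NuTRAP males was at 67.2, 156 and 165 CPM in old mice, against 117 to 198 CPM (median 165) in 4 young mice. The lowest old male was the only old male of the first batch, and the log2 fold change was -0.31 ± 0.13 (adjusted p = 0.944), or -0.12 without that library.

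The age difference in males minus that in females was called for none of the 9 genes in either model, and edgeR called 0 of 14889 genes (0%) in DAT;NuTRAP and 0 of 15607 (0%) in VGAT;NuTRAP. At an unadjusted p below 0.05 there were 561 and 798 genes, while DESeq2 called 5 and 0 and limma-voom 0 and 0. In dopamine neurons the genes under that limit were Mgll (0.65 ± 0.27), Daglb (0.77 ± 0.35) and Dagla (0.49 ± 0.23), all with an adjusted p of 1. Within DAT;NuTRAP females, Mgll, Daglb and Dagla were at -0.35 ± 0.21, -0.55 ± 0.32 and -0.21 ± 0.19, old over young. In males they were at 0.30 ± 0.17, 0.23 ± 0.13 and 0.28 ± 0.12, and none was called in either sex. The term of Daglb was 0.40 without the DAT;NuTRAP young female replicate 4, and that of Dagla 0.32 without the old female replicate 2. In GABA neurons the gene under that limit was Cnr1 (-0.40 ± 0.14, adjusted p = 0.952), which averaged 129 ± 53.9 CPM in old males and 161 ± 35.0 CPM in young males, and 161 ± 44.0 CPM in old females and 127 ± 40.0 CPM in young females (SD). Batch is not removed from these means. With batch in the model, the log2 fold change with age was -0.31 ± 0.13 in VGAT;NuTRAP males and 0.08 ± 0.06 in females. The term of Cnr1 was -0.26 without the VGAT;NuTRAP young male replicate 1.

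Genes around the 9 in the pathway were followed as lists. Of 16 other endocannabinoid enzymes and carriers, 13 were tested, and 9 were higher and 1 lower in dopamine neurons, where 30.0% of all genes tested were higher and 30.4% lower. The median log2 fold change of the list was 0.73, beside 0.01 over all genes tested. Gde1, a phosphodiesterase of another route to anandamide, averaged 247 ± 42.7 CPM in DAT;NuTRAP and 149 ± 9.41 CPM in VGAT;NuTRAP (log2 fold change 0.73 ± 0.05, adjusted p = 2.32e-17). The fatty acid binding protein genes Fabp5 (0.96 ± 0.07) and Fabp3 (0.99 ± 0.07) and the sterol carrier gene Scp2 (0.66 ± 0.06), whose products bind lipids in the cytosol, were also higher. The median of this list was above 0 and that of the 9 genes below it, and the difference between the lists was not tested.

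Of 9 other receptors and receptor-binding proteins, 6 were tested, and 3 were higher and none lower in dopamine neurons, where 60.5% of all genes tested were called in either direction. Cnrip1, whose product binds the tail of CB1, averaged 54.8 ± 5.97 CPM in DAT;NuTRAP and 43.4 ± 3.98 CPM in VGAT;NuTRAP (0.34 ± 0.05, adjusted p = 4.6e-07), and was thus higher where Cnr1 itself was lower. Arrb2, an arrestin gene, was higher (0.25 ± 0.08, adjusted p = 0.00464) but at -0.03 in the first batch alone, and was not called in males alone (0.08 ± 0.10, adjusted p = 0.537). Trpv1, an ion channel that anandamide also opens, was higher at very low levels (1.32 ± 1.18 and 0.429 ± 0.386 CPM in DAT;NuTRAP and VGAT;NuTRAP, adjusted p = 0.0278). The call of Trpv1 was lost in the second batch alone (adjusted p = 0.197), in females (0.118) and in males (0.199), and without either the DAT;NuTRAP old female replicate 4 or the young female replicate 5 (highest adjusted p = 0.0726). Sgip1, whose product slows CB1 internalisation, was not called over both batches (-0.14 ± 0.07, adjusted p = 0.0722). Sgip1 was called in opposite directions in the batches, higher in the first alone (0.26 ± 0.08, adjusted p = 0.00867) and lower in the second alone (-0.40 ± 0.05, adjusted p = 9.67e-08), and lower under limma-voom (adjusted p = 0.036) and with no filter on low counts (0.0252) or when any 1 of 8 libraries was left out. Of the 5 paralogs of Pla2g4e, 1 passed the filter on low counts, Pla2g4a (1.39 ± 0.63, adjusted p = 0.055), which was called under DESeq2 (adjusted p = 0.0259) and in the first batch alone (0.038). Pla2g4a was also called when any 1 of 9 libraries was left out, and its highest adjusted p with 1 left out was 0.106 (edgeR). Its levels were very low, at 1.00 ± 0.906 CPM in DAT;NuTRAP and 0.392 ± 0.356 CPM in VGAT;NuTRAP (SD).

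Of 12 tested receptors and enzymes of the Gq pathway, which drives 2-AG synthesis, 5 were higher and 5 lower, an even split like that over all genes tested (30.0% higher and 30.4% lower). Ntsr1, a neurotensin receptor gene, averaged 379 ± 45.7 CPM in DAT;NuTRAP and 65.2 ± 19.4 CPM in VGAT;NuTRAP (2.57 ± 0.12, adjusted p = 6.2e-20). The metabotropic glutamate receptor gene Grm5 (-1.47 ± 0.11) and the muscarinic receptor gene Chrm3 (-1.70 ± 0.17) were lower. Of 14 effectors of CB1, 5 were higher and 5 lower, against the same shares over all genes. The inhibitory G protein gene Gnai2 was higher (0.96 ± 0.05, adjusted p = 2.12e-21), and the potassium channel genes Kcnj3 (-1.81 ± 0.12) and Kcnj9 (-0.84 ± 0.06) and the adenylyl cyclase gene Adcy8 (-1.58 ± 0.12) were lower. Not all channel and cyclase genes of the list went this way. Mean Kcnj6 (49.4 against 22.5 CPM in VGAT;NuTRAP) and Adcy5 (279 against 222 CPM) were higher in DAT;NuTRAP, and mean Kcnj5 (2.17 against 11.1 CPM) and Adcy1 (144 against 245 CPM) were lower. With age, no gene of these lists was called in either model.

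**Figure D5:**
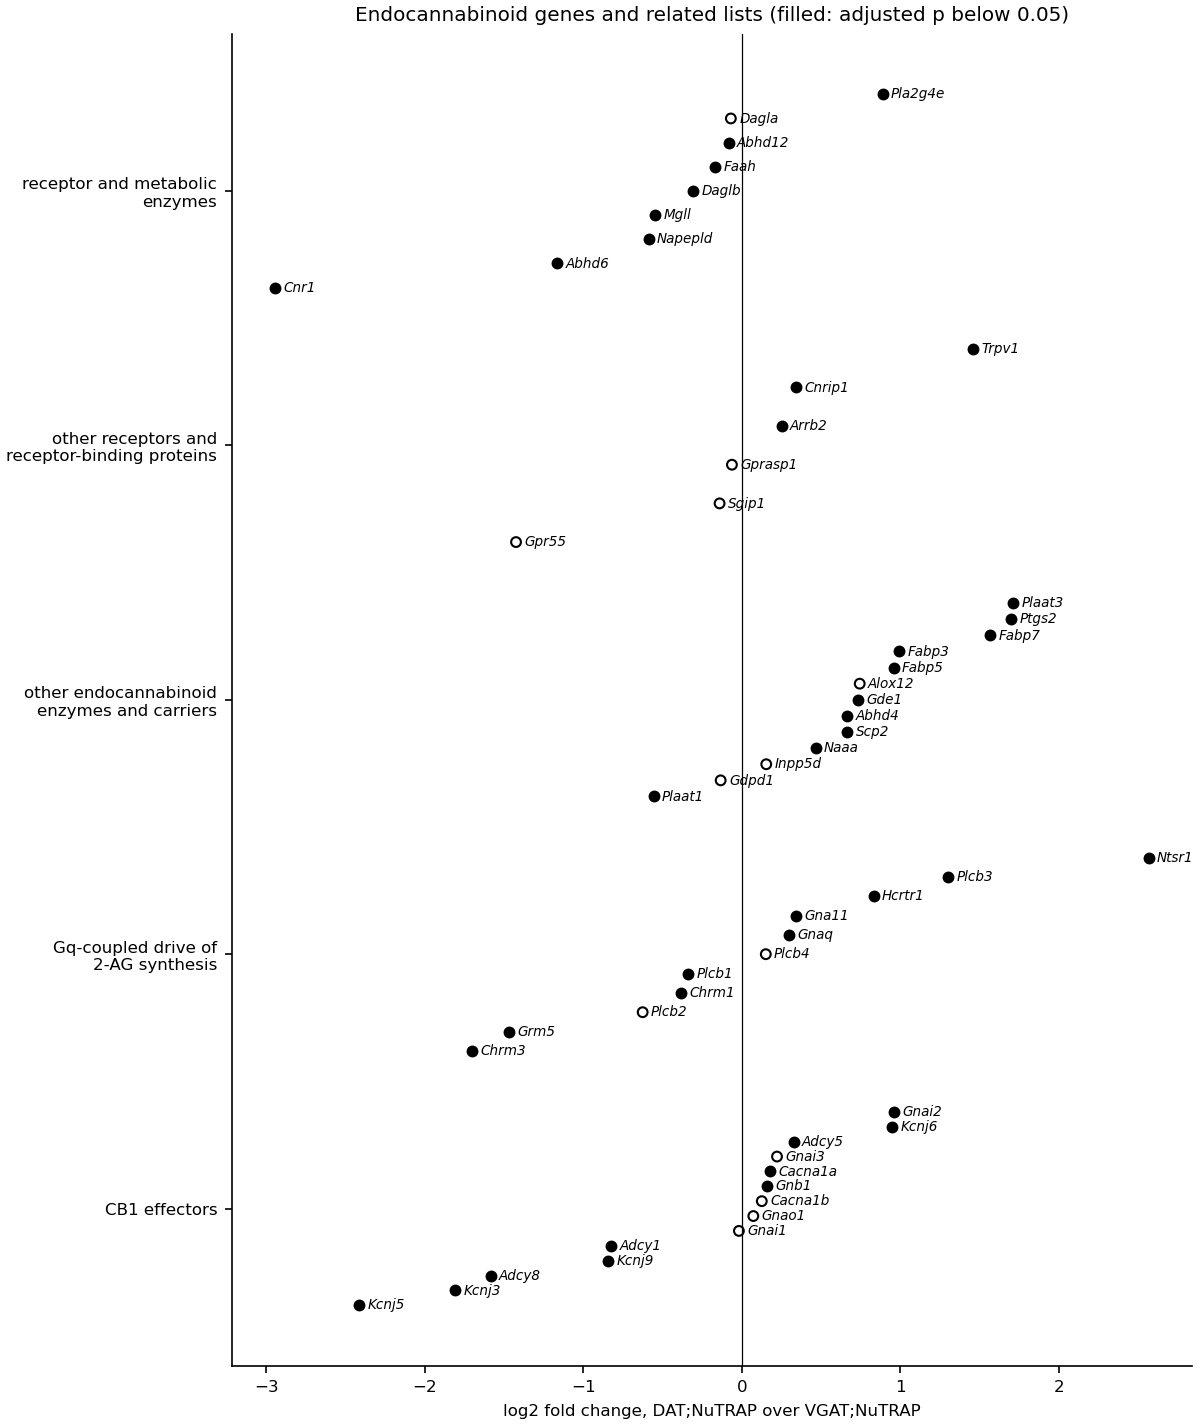
Log2 fold change, DAT;NuTRAP over VGAT;NuTRAP, of the tested genes among the 9 and 4 pathway lists, 1 point per gene except 1 Gq pathway gene that is not shown, with filled points for genes called at an adjusted p below 0.05. The 9 genes have a median of -0.31 and the other enzymes and carriers a median of 0.73.

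Genes whose levels varied most like each of the 9 were found from the correlation of log2 CPM over the 37 libraries after removal of group and batch means, over 16898 genes. These values are a description, since all points share library depth and composition, and batch differences that are not the same in the 2 models stay in them. Cnr1 was closest to Frrs1l (r = 0.92), Cnot6l (0.88) and Mrtfb (0.87), where the median r over all genes was 0.09. Napepld was closest to Paxip1 (0.86), Dagla to Hacd4 (0.80), Daglb to Map3k19 (0.76), Pla2g4e to Cdc42se1 (0.73), Mgll to H1f0 (0.72), Abhd12 to C1qbp (0.72), Faah to Dock2 (0.69) and Abhd6 to Kcnip1 (0.66). Between the 9 genes themselves the highest values were 0.55 for Mgll with Abhd6, both 2-AG hydrolases, and 0.53 for Cnr1 with Napepld, and the lowest was -0.41 for Cnr1 with Pla2g4e. With batch means removed within each model, a choice made after the data were seen, the values were 0.56 for Mgll with Abhd6, 0.26 for Cnr1 with Napepld and -0.20 for Cnr1 with Pla2g4e. Cnr1 was still closest to Frrs1l then (0.84), with Cnot6l at 0.75 (rank 10) and Mrtfb at 0.78 (rank 4). The genes named above for Dagla, Faah and Abhd12 also stayed closest. Those named for Daglb, Mgll, Napepld, Abhd6 and Pla2g4e did not, at ranks 4, 6, 3, 4 and 2.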

How the data were processed

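Ribosome-bound RNA from GFP pull-downs was sequenced in 37 mice, 1 library each. Per the submitters' processing notes and the study's methods, reads were aligned with STAR 2.7.10b to mm39 and counted with featureCounts, whose version, annotation release and strand setting are not given in the sources used here. The authors deposited raw counts per gene, 1 table per model, with no normalization. The 2 tables list the same 57180 genes and were joined by gene identifier, and 0 per-sample columns were left unused. Library totals ran from 13841253 to 38235015, and precision is lowest for Pla2g4e, with 33 reads in its lowest library.

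Counts were analysed in R 4.3.3 with edgeR 4.0.16 (filterByExpr with a minimum count of 10, TMM factors, robust quasi-likelihood F test), with the batch label as a covariate and Benjamini-Hochberg adjustment over all genes tested, and calls at an adjusted p below 0.05. Cell type contrasts used all 37 libraries, and age was fitted within each model. Values in CPM use TMM-scaled library sizes. DESeq2 1.42.0, limma 3.58.1 (voom), other filters and scalings, batch, sex and replicate settings were alternatives. The scripts were tested on simulated data. Replicates are mice by the labels. No pair of libraries in a group differed by as little as sampling noise. Positions are from GENCODE on GRCm39 and promoters from RefSeq on GRCm38.p6, and no coordinate was converted between builds. The 9 genes and all lists were chosen with earlier results of these data known. The values of 1 gene of the Gq pathway list are not reported here, though it counts in that list. The 9 genes were named in every cell type and age comparison, those with an unadjusted p below 0.05 in the sex splits, up to 4 genes with the smallest p in each other list, and the genes of highest correlation. Kcnj5, Kcnj6, Adcy1 and Adcy5 were added as further channel and cyclase genes of the CB1 effector list.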

Additional observations from a re-analysis of the deposited data

Results flagged for a closer look

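In 5 of 36 groups checked, 1 library stood apart from the others by Dixon's criterion, which chance meets in about 1 of 20 groups. Daglb was at 42.3 CPM in a second-batch young DAT;NuTRAP female (replicate 4), where the next library had 28.4 CPM. Mgll was at 67.2 CPM in a second-batch young VGAT;NuTRAP male (replicate 3), next to 52.1 CPM. Abhd6 was at 32.6 CPM in a second-batch old DAT;NuTRAP male (replicate 4), next to 19.8 CPM, and the highest old DAT;NuTRAP value of Mgll, 62.2 CPM, was in the same library. Pla2g4e was at 5.75 CPM in an old VGAT;NuTRAP male and at 5.07 CPM in a young one, both replicate 1 of the first batch, where the next libraries had 3.62 and 3.09 CPM.

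The cell type difference, DAT;NuTRAP over VGAT;NuTRAP, differed between batches for 4 genes by the batch by model term. The test was chosen after the levels were seen, and 29.1% of all genes tested were called in it. Second minus first batch, the cell type difference was -1.85 for Cnr1, -0.45 for Dagla, 0.59 for Mgll and -0.78 for Napepld on the log2 scale. The term of Pla2g4e, 0.99, was not called (adjusted p = 0.0561), but was under DESeq2 (adjusted p = 0.0293).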

How the results depend on the processing

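Over all ages, Cnr1, Abhd6 and Mgll were called lower in dopamine neurons under every alternative run, while the count of the 9 genes called, 8, fell to 5 in the first batch alone and to 5 in females alone, where calls over all genes fell to 7330 and 8504, against 10220. Between young mice it was 3 in the first batch alone, against 5, and calls over all genes were 5373, against 8407. With each library left out in turn, the count ran from 7 to 8 over all ages, from 4 to 7 in old mice (7 without DAT;NuTRAP young female replicate 3) and from 5 to 6 in young mice. Calls over all genes then ran from 9991 to 10339, from 7478 to 8169 and from 7988 to 8722. No alternative gave a call with age for any of the 9. Over all genes, age calls were 1 by edgeR and 13 by DESeq2 in DAT;NuTRAP, and 4 and 23 in VGAT;NuTRAP. In the first and second batch alone they were 4 and 1 in DAT;NuTRAP, and 0 and 52 in VGAT;NuTRAP. Replicate 1 is in the first batch and replicates 4 and above are in the second in every group, so the numbers are tied to batch. Of same-numbered pairs, 11 of 17 by age (all 3 in VGAT;NuTRAP males) and 5 of 16 by cell type (all 3 in old males) had deviations correlated over 0.1, and 2 of 17 and 2 of 16 with batch means removed within each model. With a replicate block the counts were 7 over all ages, 4 in old and 5 in young mice, and 0 with age in each model and sex. Calls over all genes were then 9517, 7171 and 7675. With age they were 1 in DAT;NuTRAP (0 in each sex) and 7 in VGAT;NuTRAP (6 in females and 7 in males). First batch alone could not be fitted for VGAT;NuTRAP males.

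The values that changed sign were uncalled, apart from 3 in the first batch alone: Arrb2 and, in young mice, Napepld were called with all libraries and not there, and Sgip1 was called there and not with all libraries. The cause was not tested. In the first batch alone, the cell type difference over all ages was 0.20 for Dagla, -0.030 for Arrb2 and 0.26 for Sgip1, the cell type difference in old mice was 0.32 for Dagla and 0.11 for Daglb and the cell type difference in young mice was 0.075 for Dagla and 0.073 for Napepld. There, the age by cell type term was 0.28 for Daglb, -0.43 for Napepld, -0.27 for Abhd6, -0.095 for Abhd12 and 0.29 for Pla2g4e, the age difference in DAT;NuTRAP was -0.73 for Cnr1, 0.20 for Daglb, -0.14 for Napepld, -0.20 for Abhd6 and 0.79 for Pla2g4e and the age difference in VGAT;NuTRAP was -0.069 for Daglb, 0.069 for Abhd6 and 0.048 for Abhd12. There, the age by sex term in DAT;NuTRAP was -0.050 for Daglb. With batch by model, the cell type difference in old mice was 0.0060 for Dagla and the age by cell type term was 0.10 for Cnr1 and -1.3e-06 for Abhd12. With limma-voom, the age by cell type term was 0.24 for Cnr1 and the age difference in DAT;NuTRAP was -0.044 for Cnr1 and -0.074 for Mgll. In the second batch alone, the age by cell type term was 0.55 for Cnr1, -0.14 for Dagla and -0.034 for Mgll, the age difference in DAT;NuTRAP was -0.14 for Dagla and -0.085 for Mgll and the age difference in VGAT;NuTRAP was 0.035 for Cnr1, -0.0014 for Dagla and -0.069 for Napepld. With the replicate block, the age by cell type term was -0.068 for Dagla and -0.12 for Napepld, the age difference in DAT;NuTRAP was -0.011 for Cnr1, -0.0039 for Mgll and -0.046 for Napepld and the age difference in VGAT;NuTRAP was -0.0024 for Daglb and -0.0010 for Napepld. Without mice of 7, 10.5 and 24 months, the age by cell type term was -0.019 for Dagla and -0.053 for Napepld, the age difference in DAT;NuTRAP was -0.028 for Mgll and the age difference in VGAT;NuTRAP was -0.047 for Dagla and 0.019 for Mgll. With no batch term, the age by cell type term was -0.037 for Mgll and -0.024 for Abhd12, the age difference in DAT;NuTRAP was -0.13 for Cnr1 and -0.057 for Mgll and the age difference in VGAT;NuTRAP was 0.088 for Cnr1. With sex as a covariate, the age difference in DAT;NuTRAP was -0.029 for Cnr1 and -0.012 for Mgll.

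Leaving out 1 library at a time, uncalled values crossed 0 with these ranges. The cell type difference in old mice ran from -0.11 to 0.046 for Dagla. The age by cell type term ran from -0.033 to 0.12 for Dagla, -0.045 to 0.19 for Mgll, -0.070 to 0.12 for Napepld, -0.056 to 0.19 for Abhd6 and -0.011 to 0.029 for Abhd12. The age difference in DAT;NuTRAP ran from -0.13 to 0.13 for Cnr1, -0.20 to 0.023 for Daglb, -0.11 to 0.11 for Mgll, -0.074 to 0.16 for Abhd6 and -0.21 to 0.037 for Pla2g4e. The age difference in VGAT;NuTRAP ran from -0.025 to 0.051 for Dagla, -0.019 to 0.043 for Daglb, -0.090 to 0.0047 for Mgll, -0.028 to 0.074 for Napepld and -0.040 to 0.023 for Abhd6.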
